A study of Mus musculus with 3 samples.

Results

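Genes of Langerhans cells and of major histocompatibility complex (MHC) class II were followed in single-cell RNA sequencing of dorsal skin from P18 mice. The genes were *Cd74*, *H2-Aa*, *H2-Ab1*, *H2-Eb1*, *Cd207* and *Ptprc*, 6 of the 19927 gene symbols listed over the 3 libraries. They were chosen by name and not by their values, and each of the 6 was counted in every library. Control mice were *Vdr* flox/flox (2 libraries), and *Vdr* cKO mice were *Vdr* flox/flox; Krt14cre (1 library), in which the Krt14 promoter drives Cre in keratinocytes and not in the leukocytes that these genes mark. The floxed alleles are thus common to both groups, and the study's methods state that each library pooled 3 male mice, so that no value can be traced to a single animal. Cells were released with trypsin, strained, and captured in droplets, in which the transcripts of a droplet receive a common barcode of 12 bases.

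Langerhans cells are the resident antigen-presenting cells of the epidermis. They sit between keratinocytes, carry langerin (*Cd207*) in their Birbeck granules, and belong to the leukocytes, which share the surface phosphatase CD45 (*Ptprc*). MHC class II molecules pair an alpha and a beta chain (*H2-Aa* with *H2-Ab1*, and the beta chain *H2-Eb1* with an alpha chain of its own), and the invariant chain *Cd74* fills the groove of the new pair until it is exchanged for a peptide. In resting skin these genes mark Langerhans cells and other antigen-presenting cells, while keratinocytes make class II mainly under interferon gamma.

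Barcodes were kept when they had 200 or more genes with a count and no more than 20% mitochondrial counts. Control 1 kept 1480 barcodes, control 2 kept 1658, and the library labelled *Vdr* cKO (here the cKO-labelled library) kept 2622, with 18802408, 28690129 and 30954897 counts and a median of 4190, 4492.5 and 4055 counts per barcode. *Vdr* had 40.7, 35.9 and 80.8 CPM (counts scaled to an equal total in each library). *Vdr* was thus not lower in the cKO-labelled library, and a count made near the 3′ end of a transcript does not check the deletion of a single exon. With 1 library of that genotype no test was made, so values are given with 95% intervals (exact Poisson for counts, Clopper-Pearson for shares), and spread between libraries is known only from the pair of controls. The intervals cover counting error only. No rule for collapsing copies of a molecule was given in the sources used here, and repeated copies make the intervals too narrow.

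Barcode sequences are shown first, because many barcodes rich in class II counts came in pairs or groups that carried the same run of bases moved by 1 position. The run of 10 or 11 bases that a barcode shares with another of its group is in capitals.

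cKO, 91208 counts: aGGGCTGTGCCA

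cKO, 15677 counts: GGGCTGTGCCAt

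cKO, 25535 counts: tGTAGCGGAGCC

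cKO, 5084 counts: GTAGCGGAGCCt

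cKO, 17491 counts: tGACGGACATGG

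cKO, 4473 counts: GACGGACATGGc

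cKO, 5878 counts: acACGGACATGG

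control 2, 16060 counts: tGGCCCTTAAGT

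control 2, 5769 counts: GGCCCTTAAGTg

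Barcodes that shared a run of 11 bases in this way made up 16.0% of the kept barcodes of control 1, 34.5% of control 2 and 35.0% of the cKO-labelled library. Such pairs made up 0.0117%, 0.0218% and 0.0138% of the possible pairs within a library, against 0.000552% to 0.00122% of those between libraries. The first pair above had 23375 and 21050 class II CPM, 12.7% and 12.7% of counts on keratinocyte genes, and 173 and 29 counts of *Cd207*. The second pair had 25220 and 25570 class II CPM, and the pair of control 2 had 91345 and 98804. These linked barcodes held class II counts at nearly the same level, and the numbers of class II-rich, *Cd207* and *Ptprc* barcodes are therefore also given with linked barcodes merged. The link was found after the data had been examined.

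In pooled counts the class II genes were low, and 3 of the 4 were higher in the cKO-labelled library by more than the control libraries differed. *H2-Aa*, an alpha chain, had 28.8 CPM in control 1, 30.5 in control 2 and 46.7 in the cKO-labelled library. Its log2 fold was 0.64 (each value raised by 1 CPM, and the controls averaged), against a log2 ratio of control 1 to control 2 of -0.08. *H2-Ab1*, its beta chain, had 44.1, 55.3 and 82.3 CPM, and its log2 fold was 0.72 against -0.32 between controls. For *H2-Eb1* the levels were 24.8, 21.5 and 37.5 CPM and the log2 fold was 0.67, against 0.20. *Cd74* had 63.8, 133 and 151 CPM, and its log2 fold of 0.61 was smaller than the difference between the controls, at -1.05. In the order of levels, *Cd74* in control 2 and in the cKO-labelled library were neighbours that differed 1.13-fold. All 4 signs turned when each barcode was given equal weight (log2 folds of -0.76 for *H2-Aa*, -0.62 for *H2-Ab1*, -0.16 for *H2-Eb1* and -0.61 for *Cd74*) and when each gene was counted once per barcode (-0.40, -0.42, -0.39 and -0.30). The higher pooled level was thus a property of the summed counts and not of the average barcode.

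For *Cd207* and *Ptprc* the difference between the controls was larger than that between the groups. *Cd207* had 6.38 CPM (5.29 to 7.63) in control 1, 1.43 (1.03 to 1.94) in control 2 and 8.53 (7.53 to 9.62) in the cKO-labelled library, and the difference between controls, a log2 ratio of 1.60, was larger than the log2 fold of 0.96. When barcodes needed over 300 and under 4000 genes with less than 5% mitochondrial counts, however, *Cd207* had 0.711, 0.749 and 10.3 CPM, so that the controls were close and the log2 fold was 2.71. Without the barcode or linked group that held most *Cd207* counts in each library, the kept barcodes had 2.08, 0.872 and 2.01 CPM. The cKO-labelled library was then not highest, and the log2 fold was 0.28. *Ptprc* had 17.98, 1.15 and 8.79 CPM, so that the cKO-labelled library lay between the controls, which differed by 3.14 on the log2 scale. In pooled counts, fewer cells of a type and less RNA in each cell cannot be told apart.

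**Figure D1:**
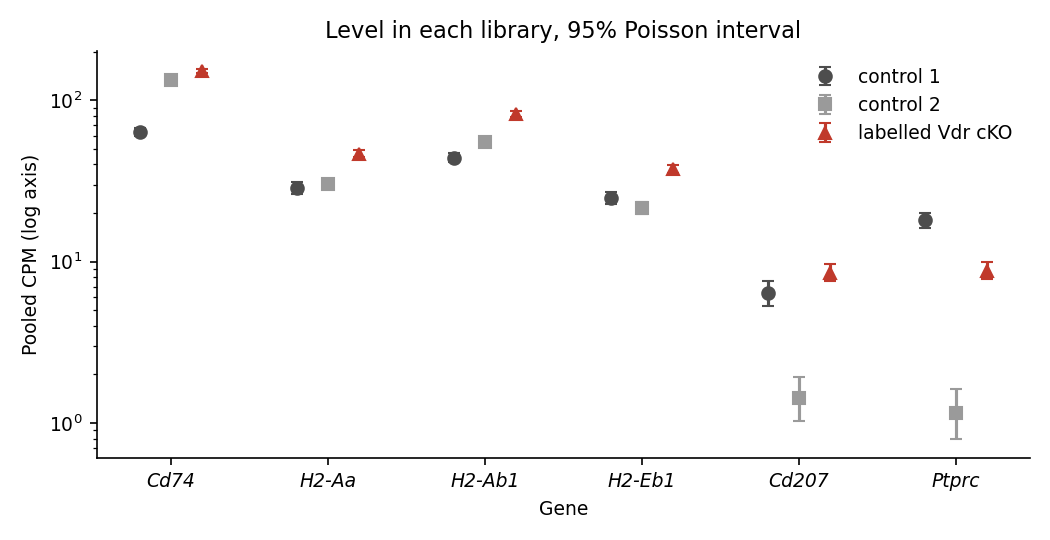
Pooled CPM (log axis) of the 6 genes in control 1, control 2 and the cKO-labelled library, with bars for the 95% Poisson interval. The 4 class II genes and *Cd207* are highest in the cKO-labelled library, *Ptprc* is highest in control 1, and the control libraries differ most for *Cd207* and *Ptprc*.

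Only *Cd74* and *H2-Ab1* reached 50 CPM in a library, and in the cKO-labelled library neither stood more than 2-fold apart from both controls on the same side. Of the 3919 genes at that level, 3.88% were more than 2-fold above both controls and 1.15% below both. The median log2 fold was 0.66 over the 6 genes and 0.0017 over all genes at that level. Scaling by TMM or median-of-ratios factors moved the median of all genes by -0.18 and -0.21, and the folds above are to be read against that shift.

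The counts of these genes lay in few barcodes. Summed over *Cd74*, *H2-Aa*, *H2-Ab1* and *H2-Eb1*, 240, 342 and 495 barcodes had at least 1 count, and the 10 highest held 46.7%, 73.7% and 63.1% of all class II counts. For genes at 50 CPM or more in the same library, the median share under the 10 highest barcodes was 46.1%, 29.2% and 18.3%. The sum was above 51.7%, 99.5% and 99.7% of those genes. Taken singly in control 1, *Cd74* was above 72.9% of genes, *H2-Ab1* above 79.8%, *H2-Aa* above 92.5% and *H2-Eb1* above 98.3%. The last 3, at 44.1, 28.8 and 24.8 CPM, were themselves below the level of the genes they were set against. These ranks rose as the level fell, and genes of equal level were not compared. With barcodes thinned to 1000 counts the 10 highest held 45.1%, 55.9% and 33.5% of the class II sum, and the cKO-labelled library was then lowest. It took the 14 highest barcodes in control 1, the 4 highest in control 2 and the 6 highest in the cKO-labelled library to hold most of the class II counts.

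**Figure D2:**
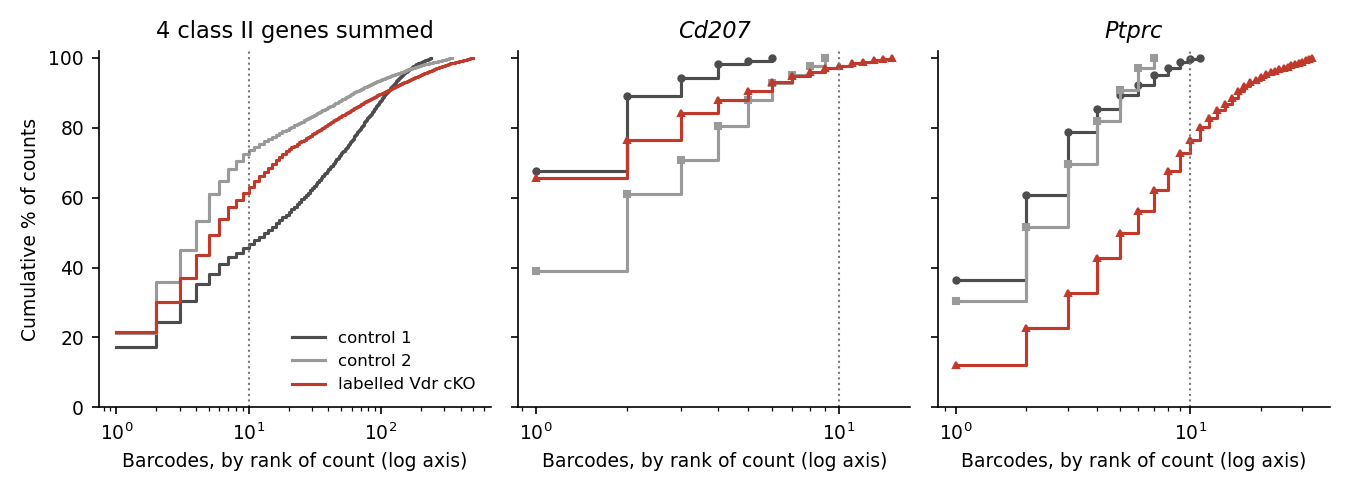
Cumulative percent of counts (vertical) against barcodes ranked by their count of the gene (horizontal, log axis), for the summed class II genes, *Cd207* and *Ptprc* in each library, with a dotted line at 10 barcodes. The top barcode alone holds 67.5%, 39.0% and 65.5% of the *Cd207* counts of control 1, control 2 and the cKO-labelled library.

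The share of barcodes with a class II count differed little between libraries once depth was made equal. That of *Ptprc* differed more in proportion, but rested on few barcodes. As deposited, *Cd74* was counted in 6.76% of the barcodes of control 1 (5.53 to 8.16), 10.1% of control 2 (8.72 to 11.7) and 9.92% of the cKO-labelled library (8.80 to 11.1), and after each barcode had been thinned at random to 1000 counts in 3.96%, 5.45% and 5.04%. *H2-Ab1* was counted in 3.21%, 3.44% and 3.24% after thinning, against 4.93%, 7.12% and 6.56% before. For *H2-Aa* the thinned shares were 1.98%, 2.13% and 2.19%, and for *H2-Eb1* 1.57%, 1.69% and 1.72%. *Cd207* was counted in 6, 9 and 15 barcodes (0.405%, 0.543% and 0.572%), or 6, 6 and 11 with barcodes that share 10 bases merged. After thinning it was counted in 5, 4 and 5 barcodes, or 0.341% (0.111 to 0.794), 0.250% (0.0683 to 0.640) and 0.195% (0.0634 to 0.455), and the intervals overlapped. *Ptprc* was counted in 11, 7 and 33 barcodes (0.743%, 0.422% and 1.26%), or 10, 4 and 26 merged. After thinning it was counted in 7, 2 and 15 barcodes, or 0.477% (0.192 to 0.981), 0.125% (0.0152 to 0.452) and 0.585% (0.328 to 0.964), and these intervals also overlapped.

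Class II genes met in the same barcodes mainly in control 2 and the cKO-labelled library. Of the thinned barcodes with *H2-Aa*, 3 of 29 in control 1, 11 of 34 in control 2 and 23 of 56 in the cKO-labelled library also had *Cd74*, which was present in 3.96%, 5.45% and 5.04% of all thinned barcodes. With *H2-Eb1*, the numbers that also had *H2-Ab1* were 3 of 23, 5 of 27 and 15 of 44. Similar shares of barcodes with each gene thus went with fewer barcodes that held several of them in control 1. Linked barcodes, which were 16.0%, 34.5% and 35.0% of kept barcodes at 11 shared bases, were counted separately in these numbers. Co-detection was not counted with them merged, so the part of linked barcodes in this difference was not tested.

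A barcode was called class II-rich when, after thinning to 1000 counts, at least 3 of the 4 class II genes still had a count. There were 2 class II-rich barcodes among 1466 in control 1 (0.136%, interval 0.0165 to 0.492), 6 among 1597 in control 2 (0.376%, 0.138 to 0.816) and 16 among 2562 in the cKO-labelled library (0.625%, 0.357 to 1.01). The share in the cKO-labelled library was 0.368 percentage points above the control mean, and its interval overlapped that of each control. The random thinning decided part of the membership. In 20 further draws the number ran from 1 to 3, from 3 to 7 and from 16 to 26, and 1, 3 and 9 barcodes were class II-rich in every draw.

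Merging barcodes that share 11 bases left 2, 4 and 12 class II-rich groups, and merging those that share 10 bases left 2, 3 and 8. As shares of the merged barcodes these were 0.148%, 0.303% and 0.571%, and 0.160%, 0.259% and 0.461%. Of the unmerged class II-rich barcodes, 3 of 6 in control 2 and 9 of 16 in the cKO-labelled library had a partner with 11 shared bases, and those in control 1 had none. Partners that were not class II-rich themselves had a class II count in 2 of 2 and 3 of 3 cases, where 20.6% and 18.9% of all kept barcodes of these libraries had one. With 10 shared bases they were 2 of 2 and 7 of 9.

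The class II-rich barcodes held 13.0%, 57.0% and 50.4% of the class II counts of control 1, control 2 and the cKO-labelled library. Their composition was close between the latter 2 libraries. *Cd74* made up 57.6% and 45.0% of their class II counts, *H2-Ab1* 19.9% and 27.5%, *H2-Aa* 13.5% and 15.1%, and *H2-Eb1* 8.95% and 12.4%. In control 1, where 395 counts came from 2 barcodes, *H2-Eb1* led with 39.5%. Without the class II-rich barcodes, *H2-Aa* had 23.6, 11.98 and 22.7 CPM and *H2-Ab1* 41.4, 28.2 and 38.5 CPM, so that neither was highest in the cKO-labelled library any longer. *Cd74*, at 59.1, 54.8 and 79.7 CPM, and *H2-Eb1*, at 16.5, 9.27 and 17.8 CPM, were still highest there.

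**Figure D3:**
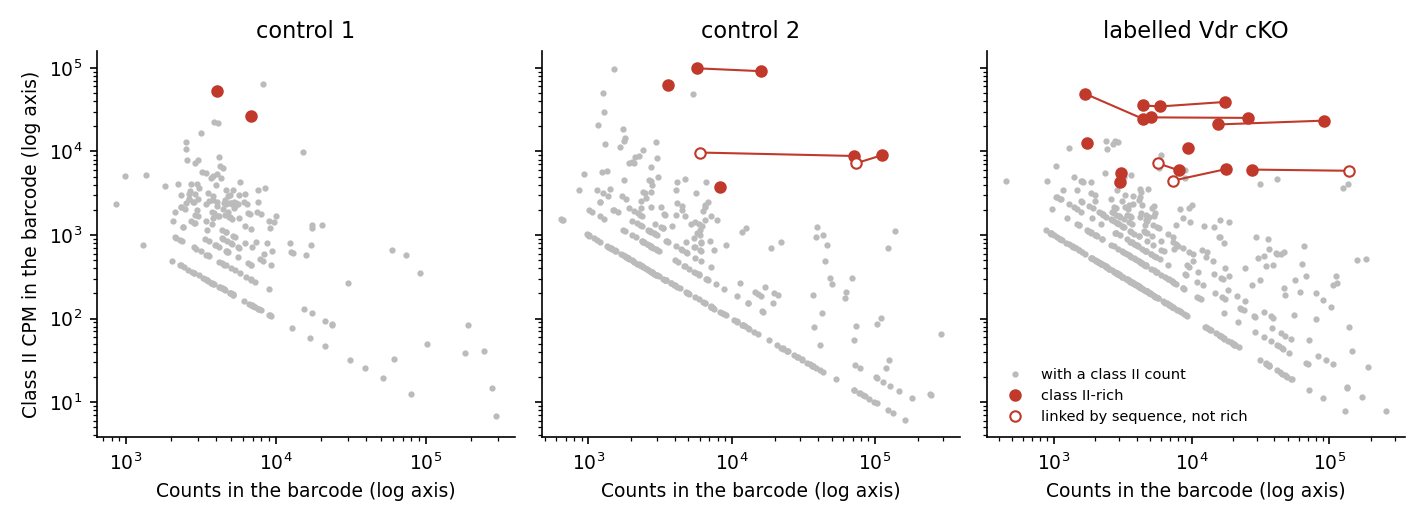
Class II CPM, within a barcode's own counts (vertical, log axis), against the barcode's total counts (horizontal, log axis), for barcodes with a class II count in each library. Filled circles are the 2, 6 and 16 class II-rich barcodes, open circles are their partners with 11 shared bases that were not class II-rich, and lines join those that share a run of 10 or more. Joined barcodes lie at similar heights over a wide range of total counts, with the widest gap at 24561 against 48881 in the cKO-labelled library. Partners that share only 10 bases and were not class II-rich are not joined, so the similar heights hold only for the joined barcodes.

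Class II-rich barcodes had a lower median share of keratinocyte RNA than the others, and all of them carried some. The median share of counts on the keratinocyte list was 9.08%, 7.58% and 5.64% in class II-rich barcodes, against 13.6%, 14.6% and 10.04% in the other barcodes. The pair of control 2 printed above had 1.67% and 0.953%. The deepest class II-rich barcode of that library, with 112226 counts and 4066 genes, had 11.4%, and the deepest of the cKO-labelled library, with 91208 counts and 3577 genes, had 12.7%, a keratinocyte share as high as in barcodes without class II counts. No caller of doublets was run, and whether these droplets held more than 1 cell was not tested.

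*Cd207* and *Ptprc* were not used to choose the class II-rich barcodes. In the cKO-labelled library, *Cd207* had 233 of its 264 counts, or 88.3%, in class II-rich barcodes, where it reached 962 CPM (843 to 1094) against 1.01 CPM in the other barcodes. It was present in 6 of the 16. The first pair printed above held 202 counts, or 76.5% of all *Cd207* counts of the library, and without this pair *Cd207* had 229 CPM in 14 class II-rich barcodes, 4 of which had a count. The ratio of class II-rich to other barcodes was 952 (653 to 1433) with the pair and 227 without it. The interval leaves out the random choice of barcodes by thinning. On the log2 scale the ratio was 9.89 (9.35 to 10.5), and the median of 20 further draws, 8.91, lay below that interval.

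Under the rule of 3 genes after thinning, no count of *Cd207* in the controls fell in a class II-rich barcode. In control 2, 0 of 217591 counts allows up to 13.8 CPM, below the level in the cKO-labelled library, if counts are taken as independent. Of these counts, however, 112226 and 71610 stood in 2 linked barcodes. In the cKO-labelled library only 6 of 16 class II-rich barcodes had *Cd207*. The limit therefore does not establish a difference between class II-rich barcodes of the 2 libraries. Without thinning, 10 counts of *Cd207* in control 2 fell in 4 class II-rich barcodes, and with 11 shared bases merged 4 counts fell in 1. In control 1, 0 of 10851 counts allows up to 276 CPM, and a level such as that without the leading pair was not detectable at this depth. The highest *Cd207* barcode of control 1, with 81 of the library's 120 counts, had 361 counts of *Cd74*, 166 of *H2-Ab1*, 1 of *H2-Aa* and 0 of *H2-Eb1*, and it was not class II-rich because only 2 of the 4 genes remained after thinning. It became class II-rich in 2 of the 20 further draws. Langerin and class II thus met in 1 barcode of control 1 at a high level, and the rule of 3 genes missed it.

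Many *Cd207* barcodes had no class II count. They were 5 of 6 in control 1, 5 of 9 in control 2 and 5 of 15 in the cKO-labelled library. The 26 counts of *Cd207* in the second barcode of control 1, the 16 in the first of control 2 and the 10 in the fourth of the cKO-labelled library stood in barcodes of 2302, 17964 and 1468 counts with no count of *Cd74*, *H2-Aa*, *H2-Ab1* or *H2-Eb1*. Conversely, at least 2 class II genes were counted in 10 of the 15 *Cd207* barcodes of the cKO-labelled library, against 3.18% of its barcodes without *Cd207*. These were 4 of 9 against 2.91% in control 2 and 1 of 6 against 1.90% in control 1. The *Cd207* barcodes were deeper than the others, with a median of 14802 counts against 4021 in the cKO-labelled library. After thinning, at least 2 class II genes remained in 8 of the 15 *Cd207* barcodes of that library. They remained in 1 of 9 in control 2 and 1 of 6 in control 1. Of all thinned barcodes, 1.68%, 1.57% and 0.682% had at least 2, in the same order. With *Cd207* thinned as well, *Cd74* was found in 3 of 5, 0 of 4 and 1 of 5 *Cd207* barcodes. For *H2-Eb1* these were 3 of 5, 1 of 4 and 0 of 5. At equal depth the overlap in control 2 thus rested on 1 barcode. Linked barcodes were counted separately in these numbers. The 6, 9 and 15 *Cd207* barcodes formed 6, 6 and 11 groups when those sharing 10 bases were merged, and co-detection was not counted by group.

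**Figure D4:**
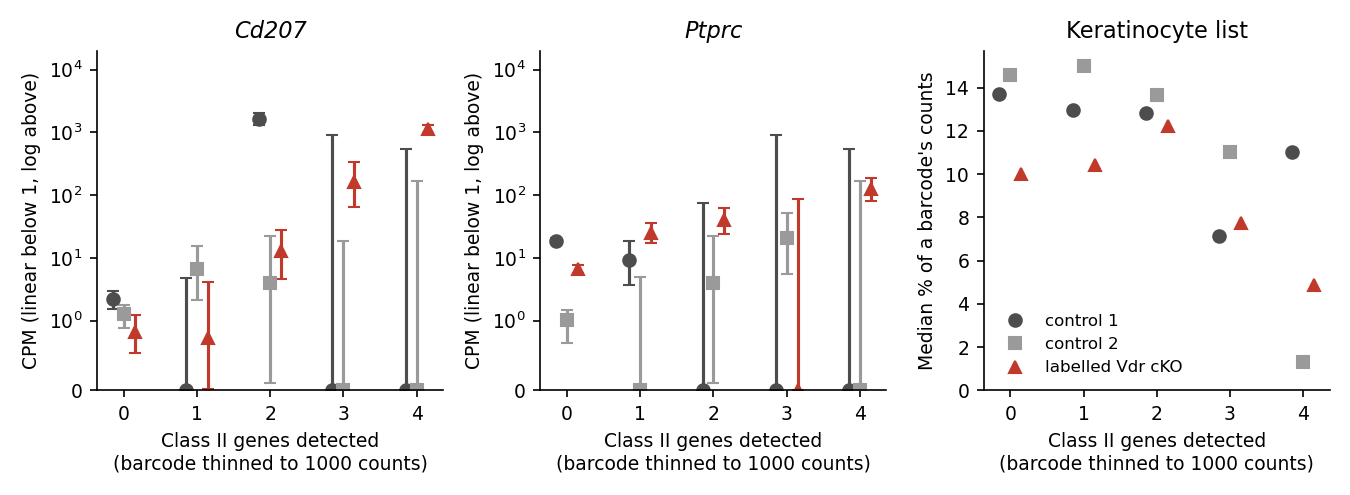
*Cd207* and *Ptprc* (CPM of the pooled barcodes, linear below 1 and log above, with 95% Poisson intervals) and the median percent of a barcode's counts on keratinocyte genes, by the number of class II genes detected in a barcode thinned to 1000 counts, for each library. In the cKO-labelled library *Cd207* is 0.832 CPM in barcodes with no class II gene and 1136 CPM in those with 4. At 2 genes in control 1, the *Cd207* level of 8 barcodes comes from a single barcode with 81 counts. The points of control 1 at 3 and at 4 genes are 1 barcode each.

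*Ptprc* was spread over barcodes of different kinds. In the cKO-labelled library it had 103 CPM in class II-rich barcodes (25 counts in 3 of 16) against 7.92 CPM in the others, a ratio of 13.0 (8.27 to 19.7), and 9.33 without the leading pair. On the log2 scale the ratio of *Ptprc* was 3.70 (3.05 to 4.30), and the median of 20 further draws, 2.91, lay below that interval. In control 2 it had 18.4 against 1.02 CPM, from 4 counts in 1 barcode, and in control 1 none of 338 counts fell in the 2 class II-rich barcodes. Class II-rich barcodes held only 9.19% of the *Ptprc* counts of the cKO-labelled library. Of its 33 *Ptprc* barcodes, 12 had at least 2 genes of the T cell list, 10 had at least 2 class II genes, 3 had both and 14 had neither. Among its barcodes without *Ptprc*, 3.59% had at least 2 T cell genes and 3.21% at least 2 class II genes. The *Ptprc* barcodes were deeper, with a median of 10150 counts against 4027. After thinning, at least 2 class II genes remained in 6 of them in place of 10, and in 1.68% of all thinned barcodes. The part of depth in the T cell genes was not tested. *Trbc2*, a gene of the T cell list, was by itself counted in 16.0% of all kept barcodes of the cKO-labelled library. In control 1 the numbers with T cell genes, with class II genes and with neither were 2, 2 and 7 of 11, and in control 2 they were 2, 3 and 4 of 7. Barcodes without *Ptprc* had 0.817% and 1.84% in control 1 and 0.969% and 2.97% in control 2, for T cell and class II genes. Linked barcodes were counted separately here, and the 33, 11 and 7 *Ptprc* barcodes formed 26, 10 and 4 groups when merged. The *Ptprc* level of control 1 came mainly from 3 barcodes with 123, 82 and 61 counts, none of which had a class II count. The barcodes with 123 and 61 counts were linked by sequence, held 54.4% of the *Ptprc* counts, and each had 5 genes of the T cell list, a list of T cell receptor and associated genes.

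Outside the class II-rich barcodes, class II counts amounted to 141, 104 and 159 CPM over 238, 336 and 479 barcodes. Most of these barcodes had few counts, 52, 131 and 164 of them a single one, but the 3 highest held 29.0%, 32.1% and 38.0% of the counts. The highest held 528, 537 and 822 counts, and those of control 2 and the cKO-labelled library were partners of class II-rich barcodes. The barcodes were then put into 5 groups of equal size by the share of their counts on keratinocyte genes. After thinning to 1000 counts, a class II count was found in 6.85%, 10.1% and 6.88% of the group of highest keratinocyte share, and in 10.6%, 10.03% and 5.69% of the group of lowest. The share did not climb or drop steadily with keratinocyte share in any library. Whether these counts come from free RNA or from keratinocytes was not tested. The pooled level moved differently. It was 348 CPM in the group of lowest keratinocyte share and 66.2 in that of highest in control 1, and 375 and 45.8 in control 2, but 109 and 184 in the cKO-labelled library, where the group next to the highest had 236. Single barcodes carried part of this. The 528 counts of 1 barcode were among the 1089 of the lowest group of control 1, 537 and 261 counts of 2 barcodes among the 1189 of control 2, and 822 and 568 counts of 2 barcodes among the 2129 of the highest group of the cKO-labelled library. The 2 highest barcodes of each group were then left out, a step chosen after seeing the data. The groups of lowest and highest keratinocyte share had 133 and 53.8 CPM in control 1, and 126 and 39.2 in control 2. In the cKO-labelled library these 2 groups had 86.0 and 65.5 CPM, in the direction of the controls. Its group next to the highest, however, still had the most, at 133 CPM.

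**Figure D5:**
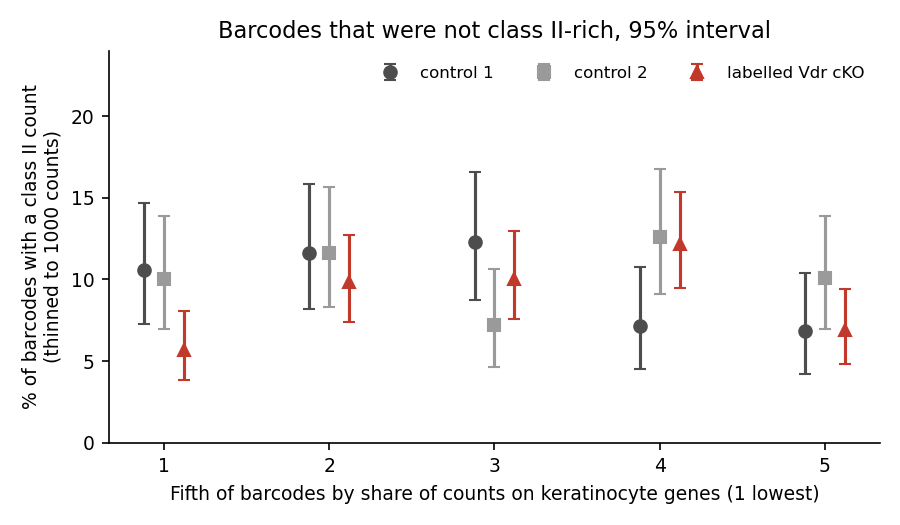
Percent of barcodes with a class II count after thinning to 1000 counts (vertical), with 95% Clopper-Pearson intervals, by group of barcodes from 1 (lowest) to 5 (highest share of counts on keratinocyte genes, horizontal), for barcodes that were not class II-rich. All 15 values lie between 5.69% and 12.6%, and the intervals of groups 1 and 5 overlap in each library.

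The pooled level also differed with depth. Among barcodes that were not class II-rich, put into 5 groups by total counts, it was 1057 CPM in the group of lowest counts and 54.0 CPM in that of highest in control 2, 256 and 37.2 CPM in control 1, and 223 and 145 CPM in the cKO-labelled library. The level did not fall steadily with depth in any library. It was highest, at 537 CPM, in the group next to the highest counts in control 1. In the cKO-labelled library it was highest, at 294 CPM, in the group next to the lowest. Barcodes with over 30000 counts held 60.7%, 71.2% and 55.5% of all counts, and 5.63%, 40.5% and 52.1% of class II counts. Without them the class II sum was 388, 497 and 342 CPM, and the cKO-labelled library was lowest, a log2 fold of -0.37 in place of 0.66.

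The label was checked against other genes of Langerhans cells. Of the 15 Langerhans cell genes of the list found in the data besides *Cd207*, 11 were higher in class II-rich than in other barcodes of the cKO-labelled library, 9 in control 2 and 1 in control 1. Of all genes counted, 18.7%, 17.8% and 3.72% were higher there in the same order. The 2 class II-rich barcodes of control 1 had no count of 14 of the 15. *Mfge8*, which codes for a secreted protein that bridges dying cells to phagocytes, had 904 against 20.2 CPM in the cKO-labelled library (10 of 16 barcodes) and 1935 CPM in class II-rich barcodes of control 2. *Epcam*, an adhesion molecule of Langerhans cells and of keratinocytes, had 264 against 233 CPM in the cKO-labelled library. It had 804 against 228 CPM in control 2 and 737 against 206 CPM in control 1, there from 1 class II-rich barcode. *Cxcl16*, a chemokine, had 49.6 against 49.6 CPM in the cKO-labelled library and no count in class II-rich barcodes of the controls. Singled out after their values were seen, *H2-M2*, a class I-like gene, had 876 against 16.0 CPM and *Runx3*, a transcription factor that Langerhans cells need, 434 against 2.38 CPM in the cKO-labelled library. *Runx3* also reached 427 CPM in control 2. Looked at in the same way, *Tgfb1*, a cytokine that Langerhans cells depend on, had no count in any class II-rich barcode, and *Irf8* had none in those of the cKO-labelled library. A count of 0 allows up to 12.4 CPM in that library, above the 6.49 and 0.0978 CPM of *Tgfb1* and *Irf8* in its other barcodes. These 2 zeros thus cannot show a lower level. *Cd24a*, which keratinocytes also make, had no count in any class II-rich barcode. Only 2 genes of this list, *Epcam* and *Cd24a*, reached 50 CPM in a library. Of these *Cd24a* was more than 2-fold above both controls, with 15.5, 19.1 and 90.6 CPM, against 3.88% of all genes at that level. Genes of the list below that level were not called.

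Genes that load class II molecules had a higher sum in class II-rich barcodes, which in control 1 rested on 1 gene. The list of the class II machinery, which holds the peptide exchange factors, lysosomal proteases and the factors that bind class II promoters, had 2300 against 199 CPM in the cKO-labelled library, 1907 against 251 in control 2 and 461 against 255 in control 1. Of its 11 genes found, 7 were higher in class II-rich barcodes of the cKO-labelled library, 7 in control 2 and 1 in control 1. That 1 was *Rfxank*, a subunit of a promoter factor and named for this reason, and the other 10 were at 0. *H2-DMa*, a chain of the factor that trades the *Cd74* fragment for peptide, had 909 against 12.5 CPM, with a count in 10 of 16 barcodes, and 1213 CPM in class II-rich barcodes of control 2. Its partner chain *H2-DMb1*, singled out after its values were seen, had 847 against 5.19 CPM in the cKO-labelled library. *Ifi30*, a thiol reductase that opens disulfide bonds of antigens, had 140 against 119 CPM. *Lgmn*, a lysosomal protease, and *Rfxap*, a subunit of the factor that binds the X box of class II promoters, had no count in class II-rich barcodes of the cKO-labelled library against 16.8 and 29.4 CPM in the others. Only 1 gene of this list, *Ifi30*, reached 50 CPM in a library. With 161, 201 and 119 CPM it was not more than 2-fold above or below both controls, where 3.88% and 1.15% of all genes at that level were. The other genes of the list were below that level and were not called.

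The class II promoters are shown because the class II genes were counted in the same barcodes. They share the X and Y boxes that the class II activator complex reads. The stretch of 150 bases before the start site is given 5′ to 3′ on the strand of the gene, from RefSeq, GRCm38.p6, with matches in capitals.

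H2-Aa, chr17:34287824-34287973, minus strand: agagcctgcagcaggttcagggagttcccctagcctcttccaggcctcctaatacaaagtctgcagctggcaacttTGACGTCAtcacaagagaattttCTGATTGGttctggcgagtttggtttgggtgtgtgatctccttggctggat

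H2-Eb1, chr17:34305717-34305866, plus strand: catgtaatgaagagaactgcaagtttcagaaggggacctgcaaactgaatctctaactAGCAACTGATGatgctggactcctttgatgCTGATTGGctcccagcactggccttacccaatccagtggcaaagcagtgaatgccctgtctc

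Windows from 250 bases before to 50 after the start site were searched on both strands for CTGATTGG (a Y box), TGACGTCA (an X2 box) and an X1 box, which do not overlap here. *H2-Aa* held the Y box from 51 bases and the X2 box from 74 bases before the start, and *H2-Eb1* the Y box from 62 and the X1 box from 92 bases before it. Of 32851 promoters of that length, 4.10%, 1.79% and 0.0700% held the Y box, X2 box and X1 box. Only the Y box was thus matched in both. These letters were not in the windows of *Cd207* and *Ptprc*. In the class II machinery list, 2 of 11 held the Y box, both genes with no count in any library, while *H2-DMa* and *H2-DMb1* had no match. Whether the boxes bear on the counts was not tested. A promoter was used for 4 of the 6 genes, not for *H2-Ab1* and *Cd74*. The genes lie at chr17:34282744-34287823 (*H2-Aa*, minus strand), chr17:34257689-34269419 (*H2-Ab1*, plus strand), chr17:34305867-34316674 (*H2-Eb1*, plus strand), chr6:83671215-83677857 (*Cd207*, minus strand) and chr1:138062861-138175708 (*Ptprc*, minus strand) of GRCm38.

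The genes whose counts were most like the class II genes were ranked by the mean over libraries of the log2 ratio of CPM in class II-rich to other barcodes, with 1 CPM added. Only genes counted in class II-rich barcodes could enter, 248 in all, so that the ranks favour genes high there and are a description of these barcodes, 2 of which make up control 1. The class II genes held ranks 1, 2, 4 and 5, which the choice of barcodes fixes. The others in the first 10 were *Lcp1*, an actin-bundling protein of leukocytes, with a mean log2 ratio of 7.22, *Vim*, a filament protein of cells that are not epithelial, with 6.01, and *Pum3*, *Gnai2*, *Atp5pb* and *Tsc22d3* with 3.47, 3.46, 2.55 and 2.34. *Lcp1* was counted in 2 of 2, 3 of 6 and 8 of 16 class II-rich barcodes, at 13363, 55.1 and 884 CPM against 5.48, 2.71 and 7.31 CPM in the others. *Vim* was counted in 1, 4 and 9 of them, at 12902, 648 and 789 CPM.

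Lists of other cell types gave the following levels in class II-rich against other barcodes. The leukocyte list, which includes *Ptprc*, had 13363 against 84.3 CPM in control 1, 1218 against 60.3 in control 2 and 2755 against 143 in the cKO-labelled library, with 1, 8 and 10 of 12 genes higher. All of the level of control 1 was *Lcp1*, and the other 11 genes were at 0 there. The T cell list had 0 against 182, 175 against 106 and 310 against 234 CPM, with 1 of 15 genes higher in the last, *Trbc2*, a constant segment of the T cell receptor. All of the 175 and 310 CPM was *Trbc2*, and the other 14 genes were at 0 there. In the other barcodes *Trbc2* alone had 127, 83.6 and 135 CPM. It was counted in 8.11%, 11.4% and 16.0% of kept barcodes, against 0.608%, 0.663% and 1.98% for *Cd3g*. The sums of this list thus follow mainly *Trbc2*. *Cd3g*, a chain of the receptor complex, had 0 against 15.9 CPM in the cKO-labelled library, where a count of 0 allows up to 12.4 CPM. The macrophage list had 0, 27.6 and 297 CPM against 6.02, 18.7 and 4.14 CPM. In the cKO-labelled library this came from *Adgre1* and *Cd68*, singled out after their values were seen, at 169 against 0.196 CPM and 128 against 0.326 CPM, each in 2 of 16 barcodes, while *Lyz2* had no count in any kept barcode of that library. B cell and mast cell genes had no count in any class II-rich barcode, which could not show their absence. Only 2 of 4 B cell genes and 1 of 5 mast cell genes were found in the data. Their sums in the other barcodes were at most 2.74 and 0.783 CPM, where a count of 0 allows up to 276, 13.8 and 12.4 CPM in the 3 libraries. The keratinocyte list had 95936 against 138545, 102780 against 151316 and 99929 against 115628 CPM. The part of these cells and of keratinocyte RNA in the levels of the 6 genes was not tested beyond these values.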

How the data were processed

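The authors captured cells of P18 dorsal skin on the Nadia droplet instrument and deposited raw counts per gene and barcode, without normalization, as a matrix for each of 3 libraries. The labels name mm10 as the build, and the study's methods name Seurat for the alignment. A separate read aligner and the rule for collapsing copies were not given in the sources used here. Groups came from the sample titles. CPM are counts summed over the kept barcodes, scaled to the sum of all their counts. A gene was called when it had at least 50 CPM in a library and lay more than 2-fold above or below both controls with 1 CPM added. Barcodes were thinned without replacement to 1000 counts, and the 14, 61 and 60 kept barcodes below that depth were left out of thinned values. A count of 0 was given the limit of 3 counts. Total counts were 19943755, 29241653 and 31080936 over 2788, 2460 and 2782 barcodes. Barcodes are not replicates, and no p-value was computed.

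Named besides the 6 genes are up to 4 genes of each marker list by pooled CPM among those counted in at least 1% of the kept barcodes of a library, the 10 genes most like the class II genes, and genes said to have been singled out later. The 10 were taken from genes counted in at least 1 class II-rich barcode of each control and a minimum share of those of the cKO-labelled library. The genes and lists were chosen with earlier results of these data known. The alternatives were other limits for barcodes, TMM factors of edgeR 4.0.16 and size factors of DESeq2 1.42.0 in R 4.3.3, other totals, pseudocounts, depths of thinning and rules for class II-rich barcodes, removal of similar or shared barcodes, and leaving out a control. Merging linked barcodes, repeating the thinning, and leaving out the leading group or barcodes over 30000 counts were chosen after seeing the data. Python 3.11.15 was used with scipy 1.17.1, numpy 2.4.6 and matplotlib 3.10.9, and the procedures were tested on simulated data. Promoters came from RefSeq and gene positions from GENCODE M21.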

Additional observations from a re-analysis of the deposited data

Results flagged for a closer look

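Counts of the 6 genes were also present under the barcodes that had been left out, nearly all because they had under 200 genes, and lay above the limit that a count of 0 allows there (3 counts, or 2.63 CPM in control 1, 5.44 in control 2 and 23.8 in the cKO-labelled library). In the 1308 left-out barcodes of control 1, *Cd74* had 303 CPM, *H2-Aa* 52.6, *H2-Ab1* 63.1, *H2-Eb1* 40.3, *Cd207* 41.2 and *Ptprc* 14.9. In the 802 of control 2, *Cd74* had 618 CPM, *H2-Ab1* 201, *H2-Eb1* 120, *Cd207* 39.9 and *H2-Aa* 10.9. In the 160 of the cKO-labelled library, *H2-Ab1* had 103 CPM from 13 counts and *Cd74* 31.7 CPM from 4 counts.

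*Cd74*, *H2-Ab1*, *H2-Eb1* and *Cd207* were thus at a higher level under the left-out than under the kept barcodes in both controls. *H2-Aa* was higher there in control 1 only. All 47 counts of *Cd207* in the left-out barcodes of control 1 stood in 1 barcode, and 18 of the 22 in control 2. For *Cd74*, 1 barcode held 81 of 346 and 159 of 341 counts.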

How the results depend on the processing

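No paired analysis was possible because the groups share a single replicate number. The summed class II genes had a log2 fold of 0.66, which became 1.40 when barcodes needed over 300 and under 4000 genes with less than 5% mitochondrial counts, -0.59 as the mean of each barcode's CPM, -0.37 with each gene counted once per barcode and -0.37 without barcodes over 30000 counts. In the same order *Cd207*, at 0.96, became 2.71, -0.80, -0.25 and -0.70, and it was -1.29 without class II-rich barcodes and 0.28 without the leading group. Leaving out a control gave 0.40 to 0.97 for the class II sum, 0.37 to 1.97 for *Cd207* and -0.96 to 2.19 for *Ptprc*.

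The class II-rich share, 0.368 percentage points above the control mean, became 0.671 with those limits, 0.830 when thinned to 2000 counts, 0.801 without thinning and 0.555 with at least 2 genes needed, and 0.249 to 0.488 without a control. The log2 ratio of *Cd207* in class II-rich over other barcodes, 9.89, became 8.92 with all barcodes, 9.24 when thinned to 500 counts, 8.04 without thinning, 8.66 with at least 2 genes, 8.89 with barcodes 1 base apart reduced, 8.46 with 11 shared bases merged, 8.91 as the median of 20 draws and 7.82 without the leading group. That of *Ptprc*, 3.70, became 3.03 with barcodes 1 base apart reduced, 2.87 with 10 shared bases merged and 2.91 as the median of draws. The 10 highest barcodes held 33.5% of class II counts in the cKO-labelled library when thinned, in place of 63.1%. The cause of these moves was not tested. Of 159 values under alternatives, 108 moved by less than the spread between controls or the counting interval, and 134 kept their sign. These numbers do not measure how robust the results are. Percentages under the 10 highest barcodes cannot change sign, and the class II sum was counted beside each of its genes. Leaving out a control was judged by a spread taken from the same controls. Few barcodes and possible copies of molecules limit every value.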

Other observations

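MHC class I genes, which most cells express, had a lower sum in class II-rich than in other barcodes of the controls. In the cKO-labelled library their sum was higher there. The list of 11 class I genes had 276 against 2599 CPM in class II-rich and other barcodes of control 1, 2077 against 2915 in control 2 and 5047 against 3840 in the cKO-labelled library. In the same order 0, 3 and 5 of the 11 genes were higher in class II-rich barcodes, where 3.72%, 17.8% and 18.7% of all genes counted were. The 276 CPM of control 1 is the level of 3 counts. In pooled counts the class I list had 2598, 2909 and 3850 CPM. Of its 8 genes at 50 CPM or more, 1 was over 2-fold above both controls, against 3.88% of all genes at that level. Melanocyte genes had 4.10, 3.56 and 39.6 CPM in pooled counts, and 132 against 38.9 CPM in class II-rich and other barcodes of the cKO-labelled library. Haemoglobin genes, which mark blood, had 104, 463 and 62.5 CPM in pooled counts and 645, 9.19 and 33.0 CPM in class II-rich barcodes.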
